A study of Mus musculus with 6 samples.

Results

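Small Cajal body RNAs (scaRNAs) are noncoding RNAs that guide chemical modification of the spliceosomal small nuclear RNAs inside Cajal bodies, compartments of the nucleus. They are built like small nucleolar RNAs (snoRNAs). Box C/D RNAs direct 2′-O-methylation through fibrillarin, box H/ACA RNAs direct pseudouridylation through dyskerin, and mixed scaRNAs carry both kinds of domain. An H/ACA scaRNA differs from an H/ACA snoRNA by a short CAB box, which binds the protein Wrap53 (TCAB1) and keeps the RNA in the Cajal body. The genes described here are all symbols in the count tables that start with Scarna, 9 of 23420 genes. Scarna3a, Scarna3b, Scarna8 and Scarna13 are of the H/ACA type, Scarna2, Scarna9 and Scarna17 of the C/D type, and Scarna6 and Scarna10 mixed, by the textbook class of the human homologues.

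The RNA came from NIH 3T3 cells, an immortalised mouse fibroblast line, and every library, the inputs included, was made from cells transfected with the plasmid pEGFP-NXF3. NXF3 belongs to the nuclear export factors, proteins known for carrying RNA out of the nucleus. The 3 input libraries had no antibody, and the 3 NXF3 pulldown libraries were made from RNA recovered with an anti-GFP antibody, from 3 independent experiments per the labels. Below, 3 values of a group stand in the order of replicates 1, 2 and 3. The series title names the localisation of snoRNAs as the question. No pulldown from cells without the bait, and no spike-in RNA, was used here, so each comparison sets the composition of 1 RNA pool beside that of another. The gel slice taken, per the labels' protocols, held library products of 30 to 375 nucleotides, and a count is of sequenced reads, not of intact scaRNAs.

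Gene counts were 1884117 to 3935088 in the inputs and 769570 to 6946284 in the pulldowns, with pulldown 1 the shallowest. Against each other library, pulldown 1 gave 0.883 to 0.905 (Pearson r on log2 CPM across genes, which are not independent replicates). All 12 listed fibroblast markers had reads. None of 6 epithelial or 5 leukocyte markers did, and the 5 adipocyte markers had 1 read in all. In the edgeR quasi-likelihood test with Benjamini-Hochberg adjustment over 1852 genes, 1 gene was lower in the pulldown, 2900060B14Rik (log2 fold -2.77), and 0 were higher. DESeq2 called 1 lower and 1 higher gene, and limma-voom 1 and 0. At an unadjusted p under 0.05 there were 62 lower and 42 higher genes by edgeR.

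The RNAs of 4 members are shown as examples of the classes: the 3 tested H/ACA members, and Scarna2 for the C/D class. They are GENCODE M21 transcripts with positions on GRCm38; the build named in the submitters' processing notes is mm9. In the H/ACA members, capitals mark TGAG, a common form of the CAB box, and the ACA within the last 7 bases that gives the class its name. In Scarna2, a C/D member, capitals mark TGATGA, a form of the C box, and CTGA, the D box. Searches ran on the RNA strand only, and a CTGAG holds both CTGA and TGAG.
Scarna13 (chr12:105031075-105031349, minus strand, H/ACA): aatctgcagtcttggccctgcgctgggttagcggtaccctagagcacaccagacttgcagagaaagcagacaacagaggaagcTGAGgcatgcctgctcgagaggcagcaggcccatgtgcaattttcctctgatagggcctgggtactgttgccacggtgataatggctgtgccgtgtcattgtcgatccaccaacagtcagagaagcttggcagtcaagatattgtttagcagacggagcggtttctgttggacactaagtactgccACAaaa
Scarna8 (chr4:86586453-86586583, minus strand, H/ACA): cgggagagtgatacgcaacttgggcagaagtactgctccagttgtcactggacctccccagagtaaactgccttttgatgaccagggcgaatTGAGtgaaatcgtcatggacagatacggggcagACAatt
Scarna3a (chr1:159340283-159340422, plus strand, H/ACA): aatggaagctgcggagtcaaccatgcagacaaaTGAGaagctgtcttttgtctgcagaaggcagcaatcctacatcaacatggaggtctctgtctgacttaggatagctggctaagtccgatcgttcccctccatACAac
Scarna2 (chr3:108554338-108554417, minus strand, C/D, bases 335 to 414 of 414): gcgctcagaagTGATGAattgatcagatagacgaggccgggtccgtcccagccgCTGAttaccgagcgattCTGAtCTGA

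All 4 H/ACA members held TGAG, each at 1 position, and so did 45.2% of 42 Snora transcripts, the H/ACA snoRNAs of the same annotation. These letters are not particular to the class: they were in 82.8% of 99 Snord transcripts, the C/D snoRNAs, and in the C/D members Scarna17 (3 positions) and Scarna9 (1 position). All 4 ended in the ACA, as did 95.2% of the Snora transcripts and 5.05% of the Snord transcripts. Scarna9 and Scarna17 held both TGATGA and CTGA, which were in 75.8% and in all of the Snord transcripts. Scarna8, an H/ACA RNA, also held 1 TGATGA but no CTGA. A match of such short letters is a description and not a functional site. The mixed Scarna6 and Scarna10 each held the C box letters, the D box letters and the TGAG, with no ACA in the last 7 bases of their models.

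Most members lie inside other genes. Scarna13 lies in Snhg10, a noncoding host gene, Scarna3a in Cop1, Scarna3b in Dcaf5, Scarna6 in Atg16l1, Scarna8 in Haus6, Scarna9 in Cep295 and Scarna10 in Ncapd2, each on the host's own strand. Scarna2 and Scarna17 lie within no other annotated gene. Scarna10 overlaps an exon of its host and of the noncoding Gm28967, Scarna3b an exon of the noncoding CT030161.1, and no other member overlaps an exon of a gene other than a microRNA gene. The tables list Snhg10 with 1 read over all 6 libraries, Cop1 (under its older symbol Rfwd2) with 1 to 4 reads a library, and Haus6 with 5 to 27.

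The H/ACA members Scarna13, Scarna3a and Scarna3b each hold a microRNA gene in their last hairpin, so the hairpins are shown here. In them, from RefSeq (GRCm38.p6), capitals mark the mature microRNA arms.
Mir3069 in Scarna13 (chr12:105031077-105031141, minus strand): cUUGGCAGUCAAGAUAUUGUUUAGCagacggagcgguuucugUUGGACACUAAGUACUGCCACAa
Mir1843b in Scarna3a (chr1:159340358-159340423, plus strand): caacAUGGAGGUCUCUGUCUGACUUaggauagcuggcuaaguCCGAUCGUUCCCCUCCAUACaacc
Mir1843a in Scarna3b (chr12:80391613-80391677, minus strand): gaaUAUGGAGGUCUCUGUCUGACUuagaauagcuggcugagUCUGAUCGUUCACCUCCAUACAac
Mir3069 covers bases 209 to 273 of Scarna13, 23.6% of the RNA, and the other hairpins cover 46.4% of Scarna3a and 46.8% of Scarna3b. The tables list all of these microRNA genes (Mir1843a under its older symbol Mir1843), each with 0 reads in every library. HTSeq-count can set a read that overlaps a pair of genes aside as ambiguous, and no source used here gives its mode. Ambiguous reads made up 0.197% to 0.427% of the reads in a library's table. Reads of the last hairpin may therefore be missing from the counts of Scarna13, Scarna3a and Scarna3b, in input and pulldown alike. No microRNA gene of RefSeq overlaps the other 6 members.

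Near-identical copies make some counts uncertain. Scarna17 is 92.4% identical over its length to Gm25443, and 82.0% of its 30-base windows also occur there. Scarna3a and Scarna3b are 85.7% identical to each other but share no 30-base window. The closest scaRNA or snoRNA model to Scarna13 is Gm25624, at 81.8% identity, with no shared window. Scarna2, Scarna6, Scarna8 and Scarna9 share no 30-base window with any other annotated transcript. The gene models differ too. RefSeq's Scarna2 is 61 bases long and covers bases 350 to 410 of the 414 in the GENCODE model, and its Scarna10 covers 71 of 325 bases. No source used here says which model the authors counted on.

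Scarna reads were rare. The 9 genes together had 401, 154 and 552 reads in input and 78, 390 and 161 after pulldown. Their summed share of gene counts was 0.0109% ± 0.00295 (SD, n = 3) before and 0.00689% ± 0.00283 after pulldown, and the groups overlapped, since pulldown 1, at 0.0101%, lay above input 2, at 0.00817%. The exact Clopper-Pearson 95% interval was 0.00801% to 0.0126% for pulldown 1 and 0.00693% to 0.00957% for input 2, for counting error only. With Snord, Gas5 and Rn45s counts, which dominate the libraries, left out of the total, it came to 0.345% ± 0.0799 before and 0.202% ± 0.0419 after pulldown. On that base every pulldown library lay below every input library, but the nearest ones were almost tied, with 0.253% in input 2 and 0.251% in pulldown 2, from 154 and 390 reads.

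By mean level per length, the H/ACA member Scarna13 stood first in input and the C/D member Scarna17 in the pulldown. Levels are given as CPM (counts scaled to a common library size after TMM scaling) per kilobase of the GENCODE model. In input, Scarna13 stood first at 177 ± 127, followed by Scarna8 at 108 ± 56.6, Scarna3a at 97.8 ± 113 and Scarna17 at 94.5 ± 21.8, with overlapping ranges between neighbours (SD, n = 3). The next were Scarna6 at 47.8 ± 5.54, whose range lay below that of Scarna17, and Scarna9 at 41.5 ± 13.0. Scarna2, at 23.3 ± 4.14, lay below Scarna9 without overlap, and Scarna10 (8.09 ± 4.23) and Scarna3b (7.87 ± 6.89) came last. In the pulldown, Scarna17 stood first at 175 ± 90.9, and Scarna13 had rank 4 at 47.2 ± 7.72. There, neighbours in the order overlapped down to Scarna2, at 24.2 ± 10.9, and the range of Scarna3b lay below it. With RefSeq lengths Scarna13 again had the highest mean in input. The C/D members Scarna2 (rank 2, at 158 ± 28.1 CPM per kilobase, against rank 7 above) and Scarna17 (rank 3) then stood before Scarna8 and Scarna3a. Their ranges overlapped, and the order of means below Scarna13 rests on the models. The first place of Scarna13 rests on input 1, at 320 CPM per kilobase. In input 2 Scarna8 stood above Scarna13, and in input 3 both Scarna3a and Scarna8 did.

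**Figure D1:**
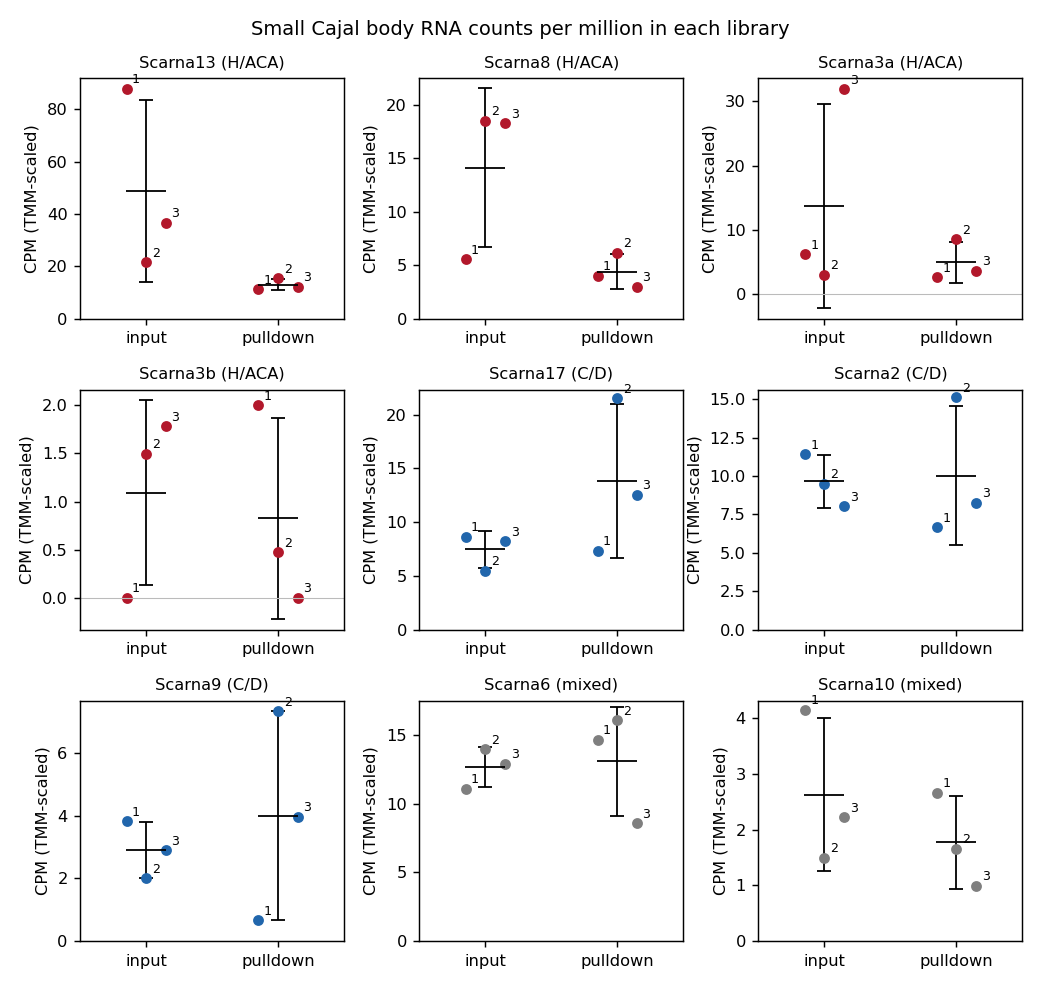
CPM after TMM scaling (y axis, linear, a scale per panel) of the 9 small Cajal body RNAs in input and pulldown; points are libraries with their replicate numbers, bars the mean and SD (n = 3), red H/ACA, blue C/D, grey mixed. Scarna13 is the member whose groups do not overlap, at 21.5 to 88.0 in input and 11.3 to 15.4 in the pulldown.

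No member passed the test of pulldown against input over all tested genes (edgeR; DESeq2 and limma-voom also called 0). Of the 9 members, 7 had enough counts to be tested. The percent of all tested genes called was 0.054 lower and 0.0 higher (edgeR, adjusted p under 0.05). At an unadjusted p under 0.05, which 3.35% of tested genes passed downward and 2.27% upward, Scarna13, Scarna8 and Scarna3a were lower and Scarna17 higher. The 3 lower ones are the 3 tested H/ACA members, and all 3 tested C/D members had positive log2 folds. Log2 folds under -1 were seen for these 3 H/ACA members and for 2.48% of all tested genes. Scarna3b and Scarna10 did not pass the filter on low counts. With no filter, and all 12025 genes with a read in the fit, edgeR called 9 genes lower (0.0748% of those tested) and 7 higher. Of the 9, 3 were members: Scarna13 (adjusted p = 0.000884), Scarna8 (0.00809) and Scarna3a (0.0291). Their folds were close to those of the main fit and the standard errors smaller, for Scarna3a 0.345 against 0.657. For Scarna3a, input 3 held 143 of the 167 input reads.

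Scarna13, also called U93, an H/ACA scaRNA with tandem H/ACA domains, was the most counted member, with 254, 43 and 165 reads in input and 17, 65 and 37 after pulldown. On the CPM scale these were 88.0, 21.5 and 36.7 in input and 11.3, 15.4 and 12.2 in the pulldown. Every pulldown library lay below every input library, as it did for 6.16% of tested genes (4.27% lay the other way, and no member did), and input 1 stood far above the other inputs. The log2 fold, with its 95% interval, was -1.89 (-2.92 to -0.87, SE 0.475), a 3.72-fold lower level, and edgeR's adjusted p = 0.304. Without input 1 it was -1.14 (adjusted p = 0.889, edgeR). Scaled to total counts alone, the groups still did not overlap, and the gap was small: input 2 had 22.8 and pulldown 1 had 22.1 CPM. On that scale 1.94% of tested genes had every pulldown below every input.

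Scarna8, also called U92, a single H/ACA scaRNA, had 16, 37 and 82 reads in input and 6, 26 and 9 after pulldown. Its CPM was 5.54, 18.5 and 18.3 in input and 4.0, 6.15 and 2.98 in the pulldown. Inputs 2 and 3 stood about alike above all pulldowns, while input 1 lay below pulldown 2, so the groups overlapped. The log2 fold, with its 95% interval, was -1.62 (-2.57 to -0.67, SE 0.44), and edgeR's adjusted p = 0.36. The fold ranged from -2.06 to -1.31 with single libraries left out.

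Scarna3a had 18, 6 and 143 reads in input and 4, 36 and 11 after pulldown, or 6.24, 3.00 and 31.8 CPM in input and 2.67, 8.52 and 3.64 in the pulldown. A single library, input 3, held 143 of the 167 input reads, and the other inputs lay among the pulldowns. The log2 fold, with its 95% interval, was -1.44 (-2.86 to -0.03, SE 0.66), and edgeR's adjusted p = 0.825. Without input 3 it was 0.19 (adjusted p = 0.997, edgeR), so its direction rested on that library. Its close relative Scarna3b had 0, 3 and 8 reads in input and 3, 2 and 0 in the pulldown, too few for a test. Scaled to total counts alone, a count of 0 (a floor of 3 counts) allows up to 0.784 CPM in input 1 and 0.915 in pulldown 3, for counting error only.

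Scarna17, a C/D scaRNA, had 25, 11 and 37 reads in input and 11, 91 and 38 after pulldown. Its CPM was 8.66, 5.50 and 8.24 in input and 7.33, 21.5 and 12.6 in the pulldown. Pulldowns 2 and 3 lay above all inputs, and pulldown 1 lay inside the input range. The log2 fold, with its 95% interval, was 0.93 (0.17 to 1.70, SE 0.36), and edgeR's adjusted p = 0.825. Without pulldown 2 the fold was 0.43 (adjusted p = 0.99, edgeR). Scaled to total counts alone, all 3 pulldowns, at 11.6 to 14.3 CPM, lay above all inputs, at 5.84 to 9.40, as they did for 0.702% of tested genes. The scales differ by the TMM factors, 1.95 for pulldown 1, 0.609 for pulldown 2 and 0.923 for pulldown 3.

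The other C/D and mixed members showed smaller differences. Scarna9, a C/D scaRNA for the U2 RNA, had 11, 4 and 13 reads in input and 1, 31 and 12 in the pulldown, with a log2 fold of 0.67 (SE 0.49, 95% interval -0.40 to 1.73), or -0.12 without pulldown 2. Scarna2, another C/D scaRNA for U2, had 33, 19 and 36 reads in input and 10, 64 and 25 in the pulldown, with a log2 fold of 0.15 (95% interval -0.55 to 0.85), or -0.34 without pulldown 2. Scarna6, of mixed type, had 32, 28 and 58 reads in input and 22, 68 and 26 in the pulldown. Its log2 fold was 0.05 (95% interval -0.58 to 0.68), and its CPM was 12.7 ± 1.47 in input and 13.1 ± 3.98 in the pulldown. Scarna10, of mixed type, had 12, 3 and 10 reads in input and 4, 7 and 3 in the pulldown. All of these groups overlapped.

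**Figure D2:**
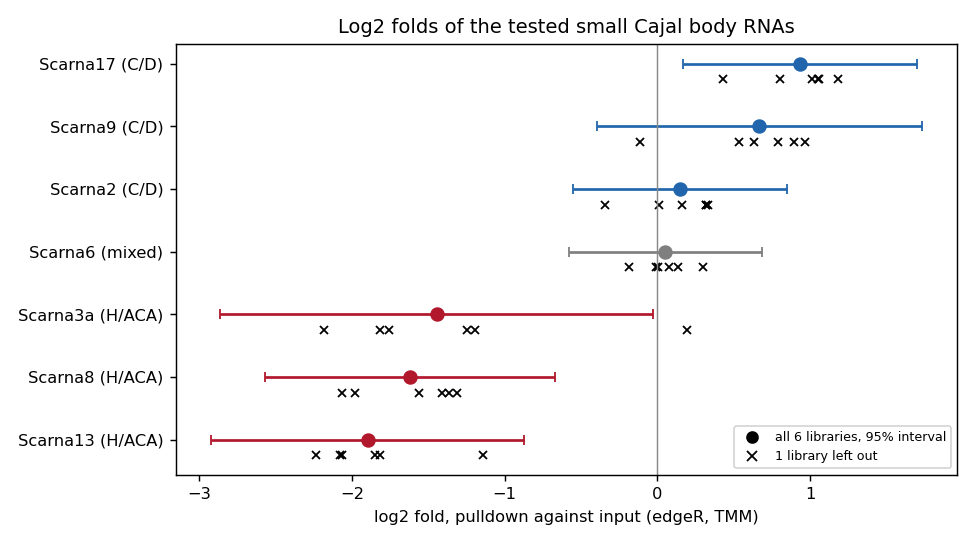
Log2 folds of pulldown against input (x axis) for the 7 tested small Cajal body RNAs (y axis): circles with 95% intervals are from all 6 libraries, crosses from fits with 1 library left out; red H/ACA, blue C/D, grey mixed. The H/ACA members lie between -1.89 and -1.44, with 1 cross of Scarna3a at 0.19, and the others between 0.05 and 0.93.

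H/ACA members made up less of the Scarna reads in every pulldown than in every input, and C/D members more. H/ACA members supplied 71.8%, 57.8% and 72.1% of Scarna reads in the inputs and 38.5%, 33.1% and 35.4% in the pulldowns. C/D members supplied 17.2%, 22.1% and 15.6% in the inputs and 28.2%, 47.7% and 46.6% in the pulldowns. Neither class overlapped between the groups, and the mixed members did, at 11.0% to 20.1% and 18.0% to 33.3%. The class shares of a library make up the whole, so the lower H/ACA and the higher C/D shares are not separate results. After TMM scaling, the CPM of each C/D member overlapped between the groups. The H/ACA mean was 67.2% ± 8.18 before and 35.6% ± 2.70 after pulldown (SD over 3 libraries each), a difference of -31.6 percentage points. The pulldown 1 share rests on 78 reads, with an exact 95% interval of 27.7% to 50.2%, and that of input 2 on 154 reads, with 49.6% to 65.7%. These shares do not depend on library size or on the scaling factors. No p-value is given, because the members and their classes were chosen with results of these data known.

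The H/ACA share was also taken with members left out. Without Scarna13 the H/ACA share was 23.1%, 41.4% and 60.2% in the inputs and 21.3%, 19.7% and 16.1% in the pulldowns, so input 1 and pulldown 1 came close. Without Scarna3a it was 56.1% to 70.5% and 26.3% to 35.1%. Without all 3 members that hold a microRNA gene, Scarna8 alone made up the H/ACA part, with 12.4%, 36.3% and 34.7% in the inputs and 11.1%, 9.06% and 7.96% in the pulldowns. The groups did not overlap in these 3 settings, which were chosen after seeing the data. As a ratio to C/D reads the H/ACA reads were 4.17, 2.62 and 4.63 in the inputs and 1.36, 0.694 and 0.760 in the pulldowns. Without Scarna13 the ratio was 0.493, 1.35 and 2.71 against 0.591, 0.344 and 0.267, and the groups overlapped at input 1 and pulldown 1.

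**Figure D3:**
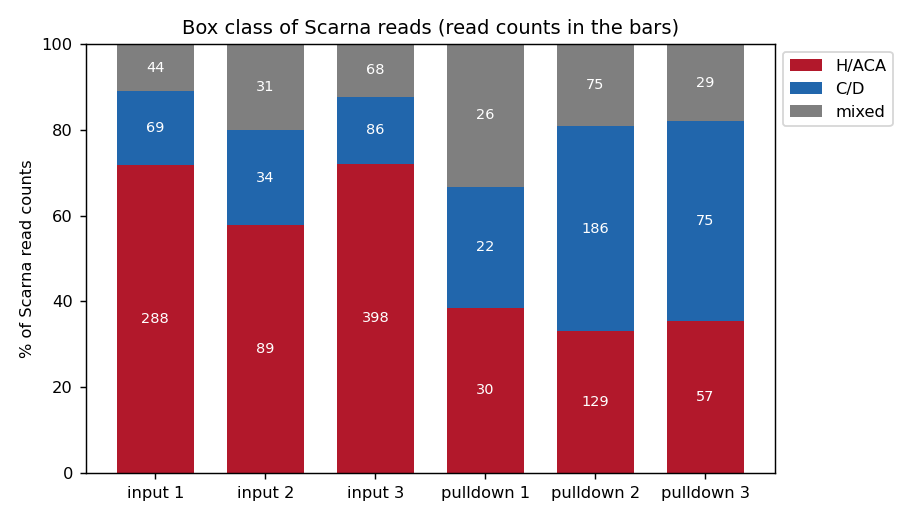
Share of all Scarna reads in each library (y axis, percent) that came from H/ACA (red), C/D (blue) and mixed (grey) members, with read counts printed in the bars. The H/ACA part takes 57.8% to 72.1% in the inputs and 33.1% to 38.5% in the pulldowns.

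Ratios between members within a library give the same comparison gene by gene, free of scaling. Of the 21 pairs of tested members, 8 had log2 ratios that did not overlap between input and pulldown, or 38.1%, against 10.5% of all pairs of tested genes. The pairs are not independent: 5 of the 8 contain Scarna17. Each of the 8 had an exact two-sided permutation p = 0.1, the smallest that 3 against 3 libraries can give. After Benjamini-Hochberg adjustment over the 21 pairs, the permutation p was 0.2625 for each. Adjusted values could not fall under 0.1 either, so they cannot decide whether a pair differs. In all 9 pairs of an H/ACA with a C/D member the H/ACA member was lower relative to the C/D member in the pulldown. Of the 9, 4 did not overlap. These 9 pairs combine the folds of the same few members given above and are not separate results. The pairs with Scarna3a leaned on input 3. Without it, the log2 ratio of Scarna2 to Scarna3a differed by -0.16, against 0.91 with all libraries. Scarna3a to Scarna9 then differed by -0.05, against -0.98, and Scarna17 to Scarna3a by 0.83, against 1.69. Of the 6 pairs within a class 2 did not overlap, both with Scarna17 above another C/D member in the pulldown.

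Of the 21 pairs, Scarna13 with Scarna17 showed the widest difference. Their log2 ratio was 3.32, 1.92 and 2.14 in the inputs and 0.61, -0.48 and -0.04 in the pulldowns. Scarna13 thus outnumbered Scarna17 in every input, while in pulldowns 2 and 3 it did not. The mean ratio differed by -2.43 (exact two-sided permutation p = 0.1, n = 3 each). Scarna17 against Scarna8 had log2 ratios of 0.63, -1.71 and -1.14 in the inputs and 0.82, 1.79 and 2.02 in the pulldowns, a difference of 2.28. Scarna13 against Scarna2 differed by -1.65 and against Scarna6 by -1.67, both without overlap. Scarna13 against Scarna8, both H/ACA, differed by -0.15, with overlap. The ratio of Scarna13 to Scarna9 overlapped between the groups: pulldown 1, with 1 read of Scarna9, lay within the range of the inputs.

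**Figure D4:**
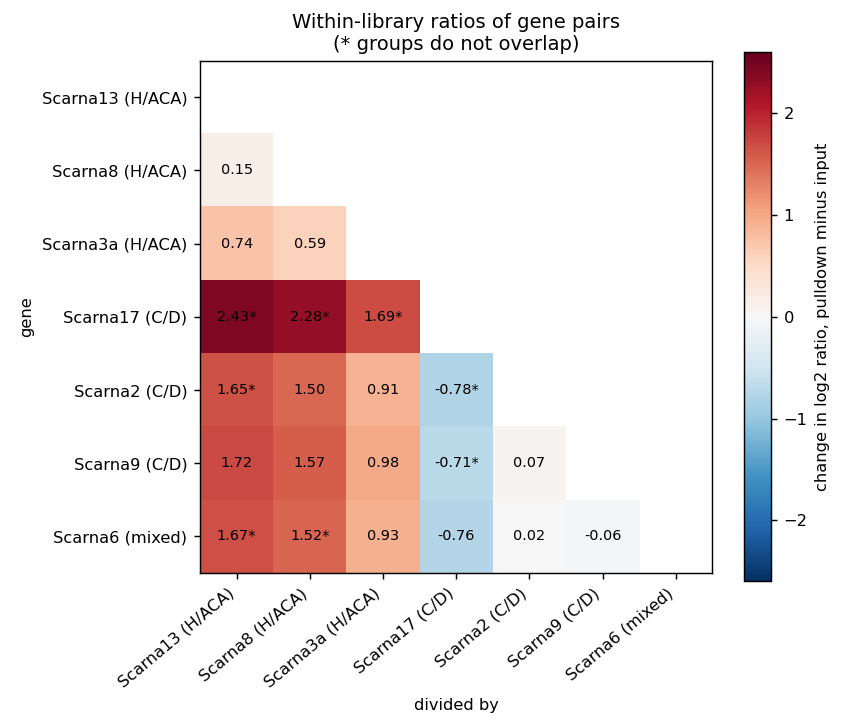
Change in the within-library log2 ratio of 2 tested members, pulldown minus input, for the gene of the row divided by the gene of the column; red marks a row gene higher relative to the column gene in the pulldown, and a star pairs whose groups do not overlap. The C/D and mixed rows against the H/ACA columns run from 0.91 to 2.43, and Scarna17 has the highest values.

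The nucleolar H/ACA RNAs, the Snora genes, had folds nearer to 0. Of 23 tested Snora genes, 10 had positive and 13 negative log2 folds, with a median of -0.04 and a lowest value of -1.08, and 0 had an unadjusted p under 0.05 (edgeR). The 3 tested H/ACA scaRNAs lay between -1.89 and -1.44. Of 62 tested Snord genes, 34 had positive log2 folds, with a median of 0.07, and the 3 tested C/D scaRNAs lay between 0.15 and 0.93. Over all 1852 tested genes the median was -0.0039 and 50.5% were negative, and over the 7 tested members it was 0.05. The difference between the scaRNAs and the snoRNAs was not tested. Median 95% half-widths were 0.95 for the members, 0.91 for Snora, 1.36 for Snord and 0.79 for all tested genes, on the log2 scale.

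**Figure D5:**
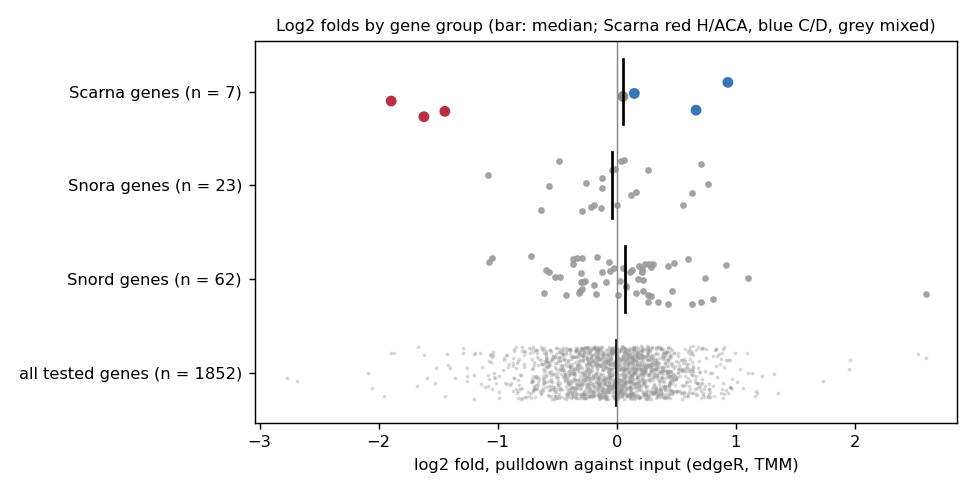
Log2 folds of pulldown against input (x axis) for tested genes by group (y axis): each point is a gene, the vertical bar the median, and Scarna genes are red for H/ACA, blue for C/D and grey for mixed. The 3 H/ACA Scarna genes lie below the lowest Snora gene, which is at -1.08.

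Terc and Mir1839, outside the prefix, are related to H/ACA scaRNAs. Terc, the telomerase RNA, ends in an H/ACA domain. It had 10, 16 and 43 reads in input and 1, 9 and 9 after pulldown, or 7.01 ± 3.17 CPM in input and 1.92 ± 1.17 in the pulldown. After TMM scaling every pulldown lay below every input, as it did for 6.16% of tested genes. Scaled to total counts alone, pulldown 3 lay above input 1, so the groups overlapped. Terc did not pass the filter of the test. Mir1839, a microRNA gene that overlaps a GENCODE scaRNA model of 127 bases, was chosen after the annotation and its values were seen. It had 25, 6 and 18 reads in the inputs and 4, 9 and 2 in the pulldowns, again without overlap after TMM scaling. Scaled to total counts alone, pulldown 1 lay above inputs 2 and 3, so the groups overlapped. For Mir1839, edgeR gave a log2 fold of -1.59 ± 0.52 (SE) with adjusted p = 0.603.

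The spliceosomal RNAs that scaRNAs modify were represented by those of the minor spliceosome. Of 17 listed snRNA genes, 4 were in the tables and 2 had reads. Rnu12, the U12 RNA, had 58, 86 and 147 reads in the inputs and 2, 41 and 28 in the pulldowns, and edgeR gave a log2 fold of -2.09 ± 0.46 (SE) with adjusted p = 0.16. Rnu11, the U11 RNA, had 9, 6 and 11 reads in the inputs and 1, 2 and 4 in the pulldowns and was not tested. Both were lower in every pulldown than in every input on the CPM scale, as were 6.16% of tested genes.

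Transcripts of the proteins that bind scaRNAs, and of scaRNA host genes, gave no call. Of 23 listed protein genes 22 were in the tables and 4 could be tested, 2 with positive and 2 with negative log2 folds and a median of 0.12. Nolc1, a Cajal body and nucleolar phosphoprotein, had 0.92 (SE 0.39, adjusted p = 0.825, edgeR), Tardbp, an RNA-binding protein, 0.38 (SE 0.53), and Nop56, a core protein of C/D particles, -0.25 (SE 0.46). Wrap53, which binds the CAB box, had 0 to 5 reads a library, and Coil, the Cajal body scaffold coilin, 0 to 3. Of 19 listed host symbols 14 were in the tables and 5 were tested, with log2 folds of -0.51 to 0.40, a median of 0.31 and adjusted p = 0.968 for each by edgeR. The 3 with the smallest p were Chd4 (0.39, SE 0.32), Whsc1 (-0.34, SE 0.28) and Haus6 (-0.51, SE 0.43), and of these Haus6 is the host of a member, Scarna8.

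Across the 6 libraries the members did not vary together as a whole. On log2 CPM after TMM scaling, Pearson r among the C/D members was 0.83 between Scarna2 and Scarna9. It was 0.78 between Scarna9 and Scarna17, and 0.64 between Scarna2 and Scarna17. Among H/ACA members r was 0.33 to 0.50. Between Scarna8 and Scarna17 it was -0.46. These are descriptions over 6 points that share depth and scaling. Scaled to total counts alone, pulldown 1 held the highest Scarna2 (13.0 CPM) and Scarna17 (14.3 CPM) and the lowest Scarna9 (1.30 CPM). The r values with Scarna9 therefore depend on the scaling. Among 212 well counted tested genes (mean of 50 or more, 211 for Scarna13), the pattern closest to that of Scarna3a was Snora43 (r = 0.92, then Snord32a 0.81 and Snord35a 0.79), and to that of Scarna8 Snora64 (0.79, then Hspa5 and Plec at 0.77). Scarna13 came closest to Snord22 (0.93, then Ranbp2 0.90 and Mir5109 0.86), and Scarna17 to Snord111 (0.89, then Mir31 0.88 and Snord33 0.86).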

How the data were processed

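Small RNA libraries (TruSeq small RNA kit, 14 PCR cycles, products of 30 to 375 nucleotides, per the labels' protocols) were made from input and anti-GFP (Abcam #ab290) RNA. The deposited tables hold whole-number read counts per gene in the HTSeq-count format. The submitters' processing notes name Bowtie, Partek and mm9; no source used here gives versions, annotation or counting mode. The 5 summary lines of each table were left out, and genes took 22.2% to 35.6% of the reads in a table. PCR copies were not marked by molecular identifiers. The exact intervals of read shares, and the floor of 3 counts, cover counting error only.

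From the counts, pulldown was compared with input in R 4.3.3 with edgeR 4.0.16 (TMM scaling, filterByExpr with a minimum count of 10, glmQLFit and glmQLFTest, no covariate, Benjamini-Hochberg adjustment, threshold 0.05). P-values measure the spread between 3 libraries a group. Standard errors and intervals were derived from F. Within-library ratios had 0.5 added to each count. No library pair held identical values. The test was checked on data simulated with 1 common dispersion (0.0908) and no outlying library. That check does not cover members whose reads rest on a single library, such as Scarna3a. DESeq2 1.42.0, limma 3.58.1 (voom), other scalings and filters, a replicate block and single libraries left out were alternatives. Sequences, gene models and overlaps come from GENCODE M21 and RefSeq tables.

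The members, classes and gene lists were chosen with earlier results of these data known. Named genes are every Scarna gene, listed genes past the threshold or among the 3 smallest p of their list, Terc and Rnu12, any gene past the threshold, and the 3 genes with the highest Pearson r to each of 4 members. Same-numbered libraries were not treated as pairs.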

Additional observations from a re-analysis of the deposited data

How the results depend on the processing

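Of 1852 tested genes 1 was lower in the pulldown by edgeR's quasi-likelihood test and 0 were higher. The count of lower genes was 0 with total-count scaling, 9 with no filter, 0 with a mean of at least 50 counts, 3 with a replicate block and 0 to 5 with 1 library left out (5 without pulldown 1, 2 without input 2, 0 without pulldown 2). The count of higher genes was 7 with no filter, 1 with a mean of at least 50 counts, 1 with a replicate block, 1 by DESeq2 and 0 to 6 with 1 library left out (6 without pulldown 1). Scarna calls numbered 3 with no filter and 0 in the 13 other settings. The cause of these changes was not tested. The log2 fold changed sign for Scarna6 with a replicate block (-0.013) and by limma-voom (-0.0057), for Scarna3a without input 3 (range 1 library out -2.18 to 0.19), for Scarna9 without pulldown 2 (-0.12 to 0.97), for Scarna2 without pulldown 2 (-0.34 to 0.33) and for Scarna6 without input 1 or pulldown 2 (-0.19 to 0.30). Scarna13 ran from -2.24 to -1.14 and Scarna17 from 0.43 to 1.18 with 1 library out, and Scarna8 had an adjusted p of 0.0817 by edgeR with the replicate block. The difference in H/ACA share was -22.5 points without Scarna13, -18.4 without Scarna13, Scarna3a and Scarna3b, and -36.3 to -29.2 with 1 library out. The number of member pairs without overlap was 8 to 15 with 1 library out, where fewer libraries overlap more rarely (15 without pulldown 1). Deviations of same-numbered libraries correlated at 0.03, 0.07 and 0.14. Each library correlated best with its own number, a weak hint from the data and not the design. Input 1 was nearly tied, at 0.0304 with pulldown 1 and 0.0294 with pulldown 2. Member counts of 16 to 581 reads over 6 libraries limit all of these values.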

Other observations

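Among the genes for proteins that build scaRNA particles, Naf1 and Tgs1 had CPM after TMM scaling in every pulldown below every input. So did 6.16% of tested genes. Both were chosen after their values were seen, and neither passed the filter of the test. Scaled to total counts alone, pulldown 1 lay above input 1 for both, so the groups overlapped. Naf1, an assembly factor of H/ACA particles, had 4, 3 and 6 reads in inputs 1, 2 and 3, against 1, 3 and 2 in the pulldowns. Tgs1, which hypermethylates the cap of small nuclear RNAs, had 4, 4 and 8 reads in the inputs and 2, 3 and 2 in the pulldowns. The core H/ACA protein genes Dkc1, Nhp2, Nop10 and Gar1 had 0 to 10 reads a library, with overlapping groups. The hairpin gene Mir1839 took 64 reads over the 6 libraries, while Mir3069, Mir1843b and Mir1843a, which lie inside members, took 0.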
